A study of Mus musculus with 2 samples.

Results

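Matrix metalloproteinases (MMPs) and the tissue inhibitors of metalloproteinases (TIMPs) were followed through single-cell RNA sequencing of the infarcted mouse ventricle. The set held 9 genes, 6 MMPs (Mmp2, Mmp3, Mmp8, Mmp9, Mmp12 and Mmp14) and 3 inhibitors (Timp1, Timp2 and Timp3). They were read by gene symbol, and the set was chosen with earlier results of these data known. Of the 9 genes, 8 were present in at least 1 of 22 deposited comparison tables, which together held 15181 distinct genes. Mmp3, which encodes stromelysin-1, was in none of the 22 tables and has no expression value below. There were 18 tables for cell clusters and 4 for fibroblast subclusters (0, 3, 4 and 5). Not analysed here were cluster 16 and subclusters 1 and 2 of the fibroblasts.

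Interstitial cells of the cardiac ventricle were captured after myocardial infarction (MI) by ligation of the left anterior descending artery, and viable cells were sorted. There was 1 library from PostnMCM hearts (the control) and 1 from hearts of genotype Yapfl/fl;Wwtr1fl/+;PostnMCM, in which Yap1 can be excised from both chromosomes and Wwtr1, the gene of TAZ, from 1 of them. PostnMCM drives a Cre recombinase from the periostin gene, active only in the presence of tamoxifen, so excision is limited to cells that switch on periostin, the activated fibroblasts or myofibroblasts. Both genotypes carried the R26-eGFP reporter, and both received chow with 0.4 g/kg tamoxifen citrate from the time of MI until hearts were collected, on day 6 per the labels and on a later day per the study's text. Ages, and the number of hearts behind each library, are not given in the labels. With 1 library per genotype there was no replicate, and every value below describes these 2 libraries without a test or an error.

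MMPs are zinc-dependent endopeptidases that cut collagens, gelatins, elastin and many other extracellular proteins, and most are secreted as inactive proenzymes. TIMPs bind the active site of MMPs, and the ratio of protease to inhibitor sets how fast extracellular matrix is turned over. MMP14 is anchored in the cell membrane, and there TIMP2 has a second role, because a complex of MMP14 and TIMP2 is the receptor on which proMMP2 is activated. In the infarcted heart, fibroblasts are a known source of MMP2, MMP14 and the TIMPs, while neutrophils carry MMP8 and MMP9 in granules and macrophages make MMP12, the macrophage elastase. The 9 genes were therefore read as 6 members of fibroblasts (Mmp2, Mmp3, Mmp14, Timp1, Timp2 and Timp3) and 3 members of myeloid cells (Mmp8, Mmp9 and Mmp12).

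The part of the coding sequence that unites the proteases is the zinc-binding site. It is shown for each MMP, 5′ to 3′ on the coding strand, with the codons of the zinc-binding histidines and of the catalytic glutamate in capitals.
Mmp2: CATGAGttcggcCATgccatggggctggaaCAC
Mmp14: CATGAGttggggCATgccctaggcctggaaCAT
Mmp9: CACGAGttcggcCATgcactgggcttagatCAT
Mmp8: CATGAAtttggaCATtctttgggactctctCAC
Mmp3: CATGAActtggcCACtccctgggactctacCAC
Mmp12: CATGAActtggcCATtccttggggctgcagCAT

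All 6 are exonic, on the plus strand of GRCm39 in the GENCODE annotation. The sites are at chr8:93565907-93565939 for Mmp2 (exon 8 of 13), chr14:54675084-54675116 for Mmp14 (exon 5 of 10) and chr2:164793053-164793085 for Mmp9 (exon 8 of 13). Those of Mmp8 at chr9:7563087-7563119, Mmp3 at chr9:7449775-7449807 and Mmp12 at chr9:7352914-7352946 lie in exon 5 of 10 of genes that cluster on chromosome 9. Any pair of the MMPs shared 20 to 27 of the 33 bases, and Mmp2 and Mmp14 were the pair that shared 27. The inhibitors act through the amino end of the mature protein, where the first cysteine contacts the zinc of the protease and both are held in disulfide bonds. Their coding sequence there is shown with both cysteine codons in capitals.
Timp1: TGTagcTGTgccccaccccacccacag
Timp2: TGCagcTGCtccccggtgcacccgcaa
Timp3: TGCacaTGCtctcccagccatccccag

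These stretches lie at chrX:20737350-20737376 (plus strand, exon 2 of 6), at chr11:118245812-118245838 (minus strand, exon 1 of 5) and at chr10:86136787-86136813 (plus strand, exon 1 of 5) of GRCm39. Pairs of inhibitors shared 16 to 18 of the 27 bases.

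For each gene and table the deposited files gave, per library, the percent of cells in which the corrected count exceeded 0. They also gave a log2 fold change, for which 1 was added to the mean corrected count of each library and the log2 value of the control was taken from that of the other library. A positive fold change is therefore a higher mean in the library labelled depleted. The cluster tables were limited to fold changes of 0.25 or more in size and to genes with a count in 25% or more of the cells of one library or the other. A gene missing from a cluster table therefore has no value there, which does not show that it was absent. The subcluster tables had no such limits and held 15059 genes each. Neither cell numbers nor counts per cell came with the tables, so the depth behind each share is unknown and no interval is given. The shares differed in resolution, since the smallest share above 0 in the library labelled depleted was 3.1%, 4.3%, 10.0% and 4.8% in subclusters 0, 3, 4 and 5, against 0.7%, 3.3%, 2.5% and 4.3% in the control. Values of subcluster 4 were thus the coarsest.

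The transcripts of the targeted genes were not lower throughout the second library. Yap1 and Wwtr1 were listed in no cluster table. In subclusters 0, 3, 4 and 5 the log2 fold changes of Yap1 were 0.07, 0.31, 0.04 and 0.26. Those of Wwtr1 were 0.15, -0.30, -0.21 and -0.16, and in subcluster 5 its shares were 100% of control and 85.7% of depleted cells. The second library is therefore named here by its label, as the library labelled depleted. In tissue sections, the study reported less nuclear Yap and Wwtr1 protein in GFP-positive myofibroblasts of this genotype. The sequenced 3′ ends need not lie in the excised exons. Col1a1, Col1a2, Col3a1 and Dcn, which encode fibrillar collagens and decorin, had a count in 100% of cells of both libraries in all 4 subclusters. Gsn had one in most cells of both libraries in each. Other fibroblast markers were less uniform. Shares of control cells with Tcf21 ran from 2.1% in subcluster 0 to 43.5% in subcluster 5. Those with Lum ran from 26.7% in subcluster 3 to 100% in subcluster 5. Those with Pdgfra ran from 38.6% in subcluster 0 to 87.0% in subcluster 5. Postn itself had a count in 10.0% to 40.0% of control cells of subclusters 0, 3 and 4 and in 87.0% of those of subcluster 5. In subclusters 0, 3 and 4 the 5 mesothelial markers (Msln, Upk3b, Wt1, Krt19 and Krt8) also had mean shares of 72.0% to 76.0% of control cells and 65.2% to 81.3% of depleted cells, against 28.7% and 5.72% in subcluster 5. Subcluster 5 was thus the subcluster with the highest share of Postn and the lowest shares of mesothelial markers.

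Over all tables there were 49 values of members, of which 38 came from a gene that met the limit of 25% of cells. The 17 values from cluster tables were past the size limit of 0.25 by the making of those tables, 10 lower and 7 higher, beside 52.3% lower among the 15431 listings of all genes. Timp2 was the member listed most often, in 6 cluster tables, whereas the 6477 genes listed anywhere were listed in a median of 2 tables and 6.86% of them in 6 or more. Mmp14 was listed in 4 cluster tables, Mmp8 in 3, Timp1 in 2, and Mmp9 and Timp3 in 1 each. Mmp2 and Mmp12 were in the subcluster tables only.

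**Figure D1:**
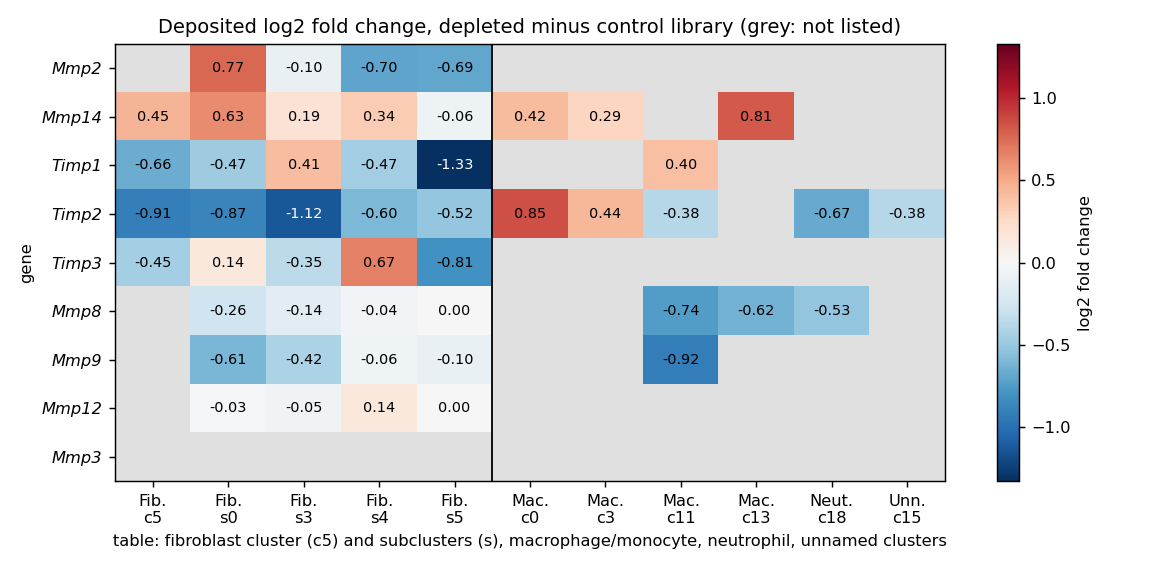
Deposited log2 fold changes (depleted minus control) of the 9 genes, rows, in the fibroblast cluster and its subclusters (left of the line) and in the other clusters that list a member (right), 1 library per genotype, with blue lower, red higher and grey not listed. Timp2 is below 0 in all 5 fibroblast tables and above 0 in macrophage clusters 0 and 3, whereas Mmp14 is above 0 in 7 of its 8 tables.

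In the fibroblasts, Timp2 was lower and Mmp14 higher in the library labelled depleted, and Timp1 and Timp3 were also listed lower. In the fibroblast cluster as a whole (cluster 5), Timp2 had a count in 99.3% of control and 100% of depleted cells, with a log2 fold change of -0.91. Timp1, a secreted inhibitor, was found in 90.3% and 78.1% of cells with a fold change of -0.66. Timp3, the inhibitor that binds to the extracellular matrix, was found in 82.6% and 80.2% with a fold change of -0.45. Mmp14 was found in 98.7% and 98.9% of cells with a fold change of 0.45. So 3 inhibitors were listed lower and the membrane-bound protease higher, beside a background in which 56.7% of the 605 genes listed for this cluster were lower. Other markers differed in this cluster too. The mesothelial markers Upk3b, Krt19 and Krt8 had log2 fold changes of -0.93, -0.88 and -0.36. Their mean share was 55.5% of control and 33.3% of depleted cells. Of 9 fibroblast markers, 5 were listed, 4 higher and 1 lower. The receptor gene Pdgfra had 1.12 with 47.7% and 84.0%, Lum 0.86, Dcn 0.51, Col3a1 0.33 and Gsn -0.77. The neutrophil marker S100a9 had -2.22. Per the study, the cells of both genotypes were spread unevenly over the subclusters, with subcluster 1 mostly depleted and subclusters 0, 2 and 4 mostly control. The part of this makeup in the values of the whole cluster was not tested. Mmp2, the gelatinase that MMP14 activates, did not reach the limits of the cluster table.

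The subclusters gave values for 8 of the 9 members, and there Mmp14 was on the higher side in 3 of 4. Subclusters 3 and 5 held cells of both genotypes per the study. In subcluster 0, Mmp14 was found in 98.6% of control and 100% of depleted cells with a log2 fold change of 0.63. In subcluster 4 the gene was in 100% of cells of both libraries with a fold change of 0.34. In subclusters 3 and 5, again with counts in 100% of cells, the fold changes of Mmp14 were 0.19 and -0.06, both within the size limit. Only 1.31% of the 8490 genes that met the share limit in subcluster 0 had a higher value than Mmp14, against 19.5%, 17.3% and 56.2% in subclusters 3, 4 and 5, where it lay within the middle 95% of genes.

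Mmp2 went opposite ways in the subclusters. In subcluster 0, Mmp2 was found in 68.3% of control and 87.5% of depleted cells with a log2 fold change of 0.77, and 0.718% of genes had a higher value. In subcluster 4 it was found in 92.5% and 100% of cells, yet its fold change was -0.70. In subcluster 5, whose cells all had a count in both libraries, the fold change was -0.69. In subcluster 3 it was found in 53.3% and 56.5% of cells with a fold change of -0.10. The share of cells with Mmp2 was thus as high or higher in the library labelled depleted in all 4 subclusters, while the mean level was lower in 2 of them past the limit and higher in 1.

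Timp2 was the member with the same direction past the limit in all 4 subclusters. In subclusters 0, 3, 4 and 5 its log2 fold changes were -0.87, -1.12, -0.60 and -0.52, with a count in 100% of cells of both libraries in each. In subcluster 3 only 11 of 9015 genes, 0.122%, had a lower value than Timp2, and in subcluster 0 only 33 of 8490, 0.389%. In subclusters 4 and 5 the shares of genes with a lower value were 2.79% and 7.62%, so Timp2 stood less far out there. Since every cell had a count, the difference in Timp2 lay in the level per cell and not in the share of cells.

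Timp1 had the lowest value of any member in any table. In subcluster 5 it was found in 100% of cells of both libraries with a log2 fold change of -1.33, and 0.659% of 8349 genes had a lower value. In subclusters 0 and 4 the fold change of Timp1 was -0.47 in each, with shares of 97.9% and 90.6% in the first and 97.5% and 100% in the second. In subcluster 3, which the study describes as proliferating, Timp1 was found in 100% and 95.7% of cells and its fold change was 0.41. The gene was therefore lower in 3 subclusters and higher in the other.

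Timp3 was higher past the limit in 1 subcluster and lower in 2. In subcluster 4 it was found in 100% of cells of both libraries with a log2 fold change of 0.67, and 3.11% of 9130 genes had a higher value. In subcluster 5 the share of cells with Timp3 was 65.2% in the control and 85.7% in the depleted library, while the fold change was -0.81. In subcluster 3 the shares were 96.7% and 95.7% and the fold change -0.35, and in subcluster 0 they were 99.3% and 100% with a fold change of 0.14. In subcluster 5 more cells thus had a count of Timp3 although its mean was lower.

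The difference between Mmp14 and Timp2, whose products meet on the cell surface, had 1 sign in all fibroblast tables. The log2 fold change of Mmp14 exceeded that of Timp2 by 1.36 in the fibroblast cluster and by 1.50, 1.32, 0.93 and 0.45 in subclusters 0, 3, 4 and 5. In the macrophage clusters that listed both genes the sign was the other way, with -0.44 in cluster 0 and -0.15 in cluster 3. The cluster and subcluster values are of overlapping cells and are not separate observations.

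**Figure D2:**
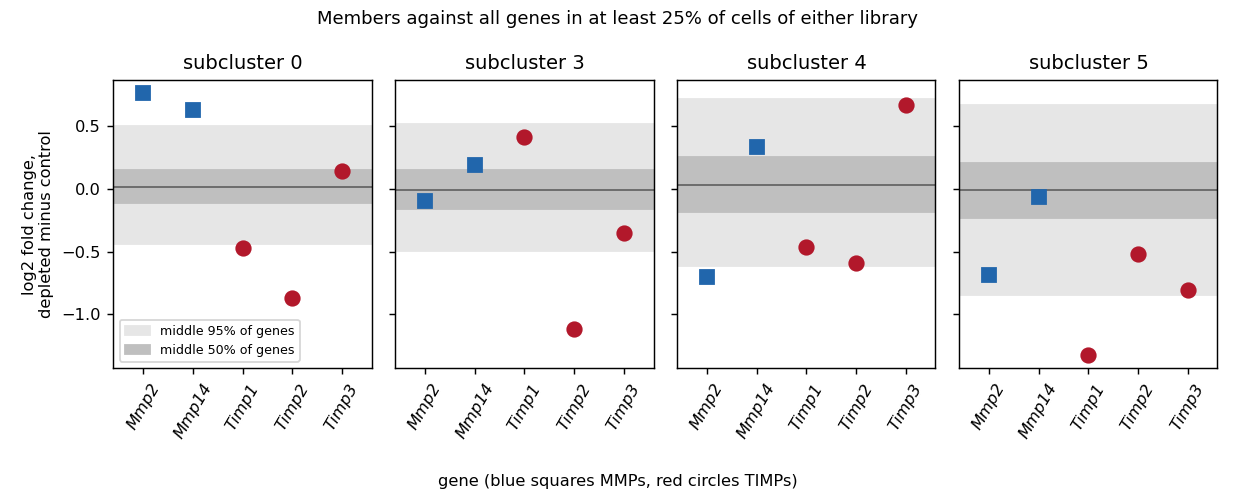
Deposited log2 fold change (depleted minus control) of 5 members of fibroblasts in each of 4 subclusters, 1 library per genotype, over the middle 95% (light) and middle 50% (dark) of all genes that met the share limit of 25%, with the median as a line. Timp2 lies under the light band in subclusters 0 and 3 and inside it in subclusters 4 and 5, Timp1 lies under it in subclusters 0 and 5, and Mmp2 lies over it in subcluster 0 and under it in subcluster 4.

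Counted over each subcluster, the members past both limits (0.25 in size and 25% of cells) were 2 lower and 2 higher of 5 in subcluster 0, where 9.87% of all genes with that share were lower and 12.5% higher. Those of subcluster 3 were 3 lower and 1 higher of 6, beside 15.1% and 13.8% of all genes. Mmp9 was among these 6 and met the share limit only through the control library, where it was high, and without it the members were 2 lower and 1 higher of 5. In subcluster 4 they were 3 lower and 2 higher of 5, beside 19.5% and 25.2%. In subcluster 5 they were 4 lower and 0 higher of 5, beside 23.5% and 20.3%. The median of these members was 0.14, -0.22, -0.47 and -0.69 in subclusters 0, 3, 4 and 5, and the median of all genes lay between -0.01 and 0.03. Without Mmp9 the median in subcluster 3 was -0.10.

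Among the members of myeloid cells, Mmp8 was listed lower in 3 cluster tables and Mmp9 in 1. Mmp8, neutrophil collagenase, was found in 72.6% of control and 35.2% of depleted cells of macrophage/monocyte cluster 13 with a log2 fold change of -0.62. In macrophage/monocyte cluster 11 the shares of Mmp8 were 27.8% and 4.2% and the fold change -0.74, and in neutrophil cluster 18 they were 63.6% and 47.1% with -0.53. Mmp9, gelatinase B of neutrophil granules and macrophages, was listed in cluster 11 only, with 34.7% and 6.2% of cells and a fold change of -0.92. In cluster 11 both genes met the share limit only through the control library, where they were high, so their direction there was partly set by the limit. Neither gene was listed in cluster 1, the other neutrophil cluster. Mmp12 was listed in no cluster.

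Markers of neutrophils moved with these genes in cluster 11. Of 9 neutrophil markers, 6 were listed there and all 6 were lower, with mean shares of 44.9% of control and 16.7% of depleted cells. They were S100a8 with a log2 fold change of -2.99 and S100a9 with -2.36, which together form calprotectin, Retnlg with -2.75, the chemokine receptor Cxcr2 with -1.27, the G-CSF receptor Csf3r with -1.07, and Lcn2 with -1.42, whose product binds MMP9 in neutrophil granules. Of 9 macrophage markers, 6 were also listed there and all 6 were lower, beside 390 lower of all 729 genes listed for cluster 11. The share limit was met through the control library alone by 4 of the 6 neutrophil and 3 of the 6 macrophage markers, so that their direction was partly set by it. In cluster 13, S100a9 had a fold change of -0.64, S100a8 of 0.35, Csf3r of -0.30 and Lcn2 of -0.28. In cluster 18, Retnlg had -0.85, Cxcr2 -0.51, Camp -0.32 and the granule gene Ltf 0.72. S100a9 was lower in 12 of the 13 clusters that listed it, B cell cluster 2 included with 79.7% and 58.3% of cells. The part of these markers in the lower values of Mmp8 and Mmp9 was not tested.

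**Figure D3:**
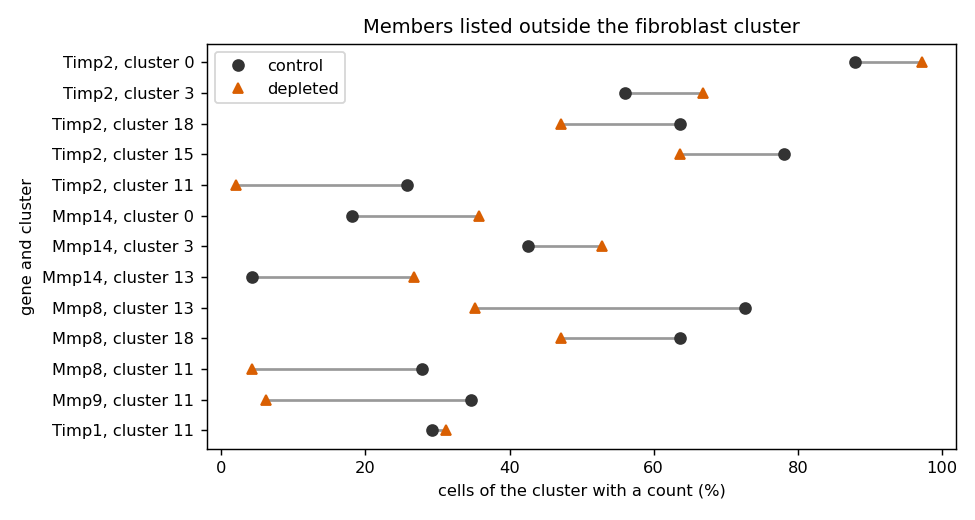
Percent of cells with a count of each member in the control library (circles) and the library labelled depleted (triangles), for every listing outside the fibroblast cluster, 1 library per genotype. All 3 listings of Mmp8 and that of Mmp9 have the triangle on the left, and all 3 of Mmp14 have it on the right.

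Mmp14 and Timp2 were also listed in macrophage/monocyte clusters, Mmp14 in 3 of them and Timp2 in 3. In cluster 13, Mmp14 was found in 4.2% of control and 26.8% of depleted cells with a log2 fold change of 0.81. In cluster 0 its shares were 18.1% and 35.8% with 0.42, and in cluster 3 they were 42.6% and 52.8% with 0.29. In clusters 13 and 0, Mmp14 met the share limit only through the library labelled depleted, so its direction there was partly set by the limit. Timp2 was higher in the same clusters 0 (87.9% and 97.2%, fold change 0.85) and 3 (56.0% and 66.9%, fold change 0.44). It was lower in cluster 11 (25.7% and 2.1%, -0.38), in neutrophil cluster 18 (63.6% and 47.1%, -0.67) and in cluster 15, which the study could not name (78.1% and 63.6%, -0.38). In cluster 11, Timp2 met the share limit only through the control library. Among macrophage markers, Mrc1 (0.45) and Adgre1 (0.30) were higher and Cd68 (-0.27) lower in cluster 0. In cluster 3, Fcgr1 (0.32) and Adgre1 (0.26) were higher. In cluster 13, Ms4a7 (0.66) and Fcgr1 (0.54) were higher and C1qb (-0.39) lower. S100a8 and S100a9 were lower in clusters 0 (-0.81 and -0.68) and 3 (-0.67 and -0.88). Ms4a7, S100a9 in cluster 0 and S100a8 in cluster 3 met the share limit in 1 library only. Counts of the fibroblast gene Col3a1 were also lower in clusters 18 (36.4% and 5.9% of cells) and 15 (50% and 18.2%), and in all 9 clusters outside the fibroblasts that listed it. Of the 9 fibroblast markers, Col3a1, Dcn and Gsn had 13 such listings, 11 lower and 2 higher. The 2 higher were of Gsn, in cluster 13 (0.28) and in cluster 18 (0.51, with 81.8% and 88.2% of cells). In cluster 3, Col3a1 was lower (-0.27) while Timp2 and Mmp14 were higher. The share limit of the tables was met through the control library alone in 9 of the 11 lower listings, 8 of them of Col3a1. Their direction was thus partly set by the limit. The parts of fibroblast RNA and of the macrophage and neutrophil markers in the values of Timp2 and Mmp14 there were not tested. Timp1 was listed in cluster 11 with 29.2% and 31.2% of cells and a fold change of 0.40. Of the 12 listings in the 8 myeloid clusters, 6 were lower and 6 higher, beside 51.8% lower among the 7211 listings of all genes in those clusters. The clusters differed in this, since 569 of 923 listed genes were higher in cluster 0, 217 of 359 in cluster 3 and 528 of 893 in cluster 13. Lower were 390 of 729 listed genes in cluster 11 and 883 of 1426 in cluster 18.

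Counts of Mmp8, Mmp9 and Mmp12 also appeared in the fibroblast subclusters at low shares. Mmp9 was found in 16.6% of control and 0% of depleted cells of subcluster 0, in 26.7% and 4.3% of subcluster 3, in 12.5% and 20% of subcluster 4, and in 17.4% and 4.8% of subcluster 5. Its log2 fold changes there were -0.61, -0.42, -0.06 and -0.10, and only that of subcluster 3 reached the share limit. Mmp8 was found in 11.7%, 10.0%, 2.5% and 0% of control cells and in 3.1%, 0%, 0% and 0% of depleted cells of subclusters 0, 3, 4 and 5. Mmp12 was found in at most 3.3% of control cells and in 10.0% of depleted cells of subcluster 4, with fold changes between -0.05 and 0.14.

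Some neutrophil markers were present in the same fibroblast subclusters at higher shares. S100a9 had a count in 85.0% to 96.7% of control cells and 38.1% to 60% of depleted cells. Retnlg had one in 21.7% to 40.0% of control cells and 0% to 4.8% of depleted cells. In the whole fibroblast cluster (cluster 5), S100a9 had a count in 49.7% of control and 9.1% of depleted cells. The subclusters were normalised separately from that cluster, so the shares of S100a9 there are not on the same scale. The mean share of the 9 neutrophil markers was 25.6% to 33.1% of control and 15.6% to 18% of depleted cells over the 4 subclusters, and lower in the depleted library in each. The defining granule genes Camp, Ltf and Ngp were at 0% to 10.0% of control and 0% to 13% of depleted cells. Lcn2 was found in more depleted than control cells in subclusters 0 (25.5% and 31.2%) and 3 (20% and 21.7%), and in subcluster 5 the fold change of S100a9 was 0.10. Shares of Mmp8 and Mmp9 were below those of S100a9 in every subcluster and library, but not below those of every neutrophil marker. In subcluster 4 Mmp9 was in 12.5% of control and 20% of depleted cells, while each of the 9 neutrophil markers was in fewer depleted than control cells. The smallest share above 0 in the library labelled depleted was 10.0% there, and the fold change of Mmp9 was -0.06, so this share is coarse. The part of neutrophil RNA in the counts of Mmp8 and Mmp9 was not tested.

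**Figure D4:**
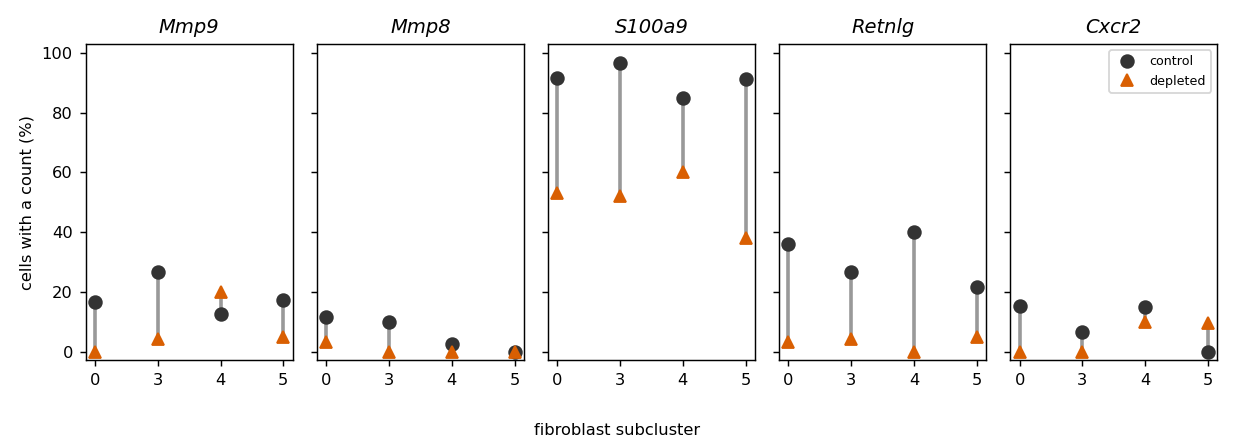
Percent of cells with a count of Mmp9, Mmp8 and 3 neutrophil markers in fibroblast subclusters 0, 3, 4 and 5, in the control library (circles) and the library labelled depleted (triangles), 1 library per genotype. S100a9 and Retnlg have the triangle below the circle in all 4 subclusters, and Mmp9 has it below in 3, with subcluster 4 the exception. In subcluster 4 the smallest share above 0 in the library labelled depleted was 10.0%.

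Other genes of extracellular proteolysis were read from 5 lists with 59 genes in all, of which 46 were held by each subcluster table. In subcluster 0, 29 of them reached the share limit, and 5 were past the size limit as lower and 4 as higher. The counts were 4 lower and 4 higher of 26 in subcluster 3, 8 and 8 of 31 in subcluster 4, and 19 and 3 of 30 in subcluster 5. Over all genes with that share, the percents lower and higher were 9.87% and 12.5% in subcluster 0, 15.1% and 13.8% in subcluster 3, 19.5% and 25.2% in subcluster 4, and 23.5% and 20.3% in subcluster 5, and all counts of the lists below stand beside these. Some of these genes met the share limit only through the library in which they were higher, so that their direction was partly set by the limit. They were 0 of 5 lower and 2 of 4 higher in subcluster 0, 0 of 4 and 2 of 4 in subcluster 3, 2 of 8 and 2 of 8 in subcluster 4, and 6 of 19 and 0 of 3 in subcluster 5. Among the values named below this holds for Mmp11 and Pcsk5, for both values of Reck, for Adamts15, and for Adam12 in subcluster 0. It also holds for Plaur in subcluster 5 and clusters 11 and 15, for Adamts14, for Plgrkt in clusters 14 and 17, and for Lrp1 in cluster 10.

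Among 17 other MMP genes, 10 were held, 2 or 3 of these met the share limit in each subcluster, and at most 2 were lower and 0 higher past both limits, beside 9.87% to 23.5% of all genes lower. Mmp19, a secreted MMP found in many tissues, was lower in all 4 subclusters, with log2 fold changes of -0.36, -0.35, -0.40 and -0.75 in subclusters 0, 3, 4 and 5. In macrophage/monocyte cluster 13 its fold change was 1.56, with 28.4% of control and 50.7% of depleted cells. Mmp11, stromelysin-3, had -0.27 in subcluster 5. Of 3 other inhibitors only Reck, a membrane-anchored inhibitor of MMPs, was held, with 0.28 in subcluster 4 (12.5% and 30% of cells) and -0.28 in subcluster 5 (30.4% and 14.3%).

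The ADAM and ADAMTS proteases, relatives that shed surface proteins and cut proteoglycans, included 20 genes, of which 18 were held. Past the limits were 0 lower and 3 higher of the 14 that met the share limit in subcluster 0, 2 and 4 of 14 in subcluster 3, 1 and 7 of 15 in subcluster 4, and 8 and 1 of 13 in subcluster 5. Adamts5, an aggrecanase, stood at -1.40 in subcluster 5 and at 0.27 in subcluster 4 on the log2 scale. Adamts15 had -1.21 in subcluster 5 (34.8% and 9.5% of cells) and 0.52 in the whole fibroblast cluster (16.4% and 39.6%). Adamts1 had -0.83 in subcluster 5 and 0.56 in the whole cluster. Adam12 had 0.92 in subcluster 0, with 18.6% of control and 37.5% of depleted cells. Outside the fibroblasts, Adam8 had 1.08 in cluster 13 and -0.79 in cluster 0, and Adam10, the main shedding enzyme of Notch, had -1.04 in T cell cluster 10. Adam15 had 0.49 in cluster 0 and -0.30 in cluster 11, and in fibroblast subclusters 3 and 5 it had -0.47 and -0.64. Adamts14 had -0.34 in NK cell cluster 14.

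Plasminogen is converted to plasmin, which can activate several proMMPs, and 7 of 9 genes of this system were held. Past the limits were 2 lower and 0 higher of the 4 that met the share limit in subcluster 0, 0 and 0 of 3 in subcluster 3, 2 and 0 of 4 in subcluster 4, and 3 and 2 of 5 in subcluster 5. In subcluster 5, Serpine2, protease nexin-1, was found in 47.8% and 85.7% of cells with a log2 fold change of 1.35. Plaur, the urokinase receptor, was found in 60.9% and 4.8% with -1.10, and Plgrkt, a plasminogen receptor, in 47.8% and 85.7% with 0.58. Outside the fibroblasts, Plaur was higher in 3 clusters, with 0.54 in cluster 15 as the highest, and lower in cluster 11 with -0.31. Plgrkt was likewise higher in 3 clusters, with 0.39 in cluster 14 as the highest, and lower in cluster 17 with -0.39.

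All 10 genes of MMP activation, binding and uptake were held. They were 2 lower and 1 higher of 8 in subcluster 0, 1 and 0 of 7 in subcluster 3, 4 and 0 of 8 in subcluster 4, and 5 and 0 of 8 in subcluster 5. Lrp1, the endocytic receptor that clears complexes of MMPs and TIMPs, stood at -1.18 on the log2 scale in subcluster 5, with 100% of cells in both libraries, and at -0.73 in T cell cluster 10. Cd44, which holds MMPs at the cell surface, had -0.85 in subcluster 5 and 0.79 in cluster 13. Cd63, a tetraspanin that binds TIMP1, had -0.80 in subcluster 4. Pcsk5, a proprotein convertase, had -0.77 in subcluster 5 with 34.8% and 4.8% of cells, and Bsg, an inducer of MMP synthesis, had -0.73 in cluster 10. T cell cluster 10 is among those whose cells, per the study, came mostly from the library labelled depleted.

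Markers of other cells also had counts in the fibroblast subclusters, and the direction differed by type. The mean share over 3 erythroid markers was 15.9% to 31.1% of control and 0% to 4.30% of depleted cells. That of 3 held T cell markers was 4.33% to 8.03% of control and 10.4% to 24.6% of depleted cells. That of 9 macrophage markers was 29.9% to 39.7% of control and 24.6% to 33.8% of depleted cells. The direction of their mean levels differed by subcluster. In subcluster 3, 4 of the 9 were past the limits and all were higher, C1qa with a log2 fold change of 1.45, C1qb with 1.38, C1qc with 1.22 and Csf1r with 0.78, and in subcluster 5 it was 3 higher, C1qa with 1.05, C1qb with 0.85 and C1qc with 0.83. In subcluster 4 it was 2 lower, C1qb with -0.97 and C1qc with -0.42, and in subcluster 0 it was 2 lower, Cd68 with -0.66 and Csf1r with -0.34, and 2 higher, C1qa with 0.53 and C1qc with 0.46. The 4 B cell, 2 held NK cell, 4 endothelial and 4 mural markers had mean shares of at most 14.1% in either library. The part of these markers in the values of Mmp14 and the TIMPs was not tested.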

How the data were processed

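Viable interstitial cells were profiled in 2 libraries by the 10x Chromium system. Per the labels and the study's methods, the authors aligned reads with Cell Ranger version 6.1.1 to GRCm39 extended by reporter sequences, normalised counts with SCTransform in Seurat, removed low-quality clusters, clustered the cells and reclustered the fibroblasts, which were normalised again. No doublet caller is named, and doublets could not be removed here. The deposited tables hold, per gene, the fraction of cells with a count in each library (printed as a percent) and a deposited log2 fold change with a pseudocount of 1. The deposited p-values, computed over cells, were not used. There were 0 unmapped columns.

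Members were read by symbol with Python 3.11.15, pandas 2.3.3 and numpy 2.4.6, counts past limits of 0.25 and 25% were made for members, lists and all genes, and scripts were tested on simulated data. The members and lists were chosen with earlier results of these data known. All members are named, and of each other protease list at most 4 genes with the largest size past the limits in the fibroblast tables and at most 4 in the other clusters. A gene that this rule would name is not reported here. Site sequences came from GRCm39 by GENCODE coding coordinates. With 1 library per genotype no test was made. Alternatives were the ratio of shares, centring on the table's median, other limits, leaving out clusters 6, 9 and 10, and the mean in place of the median.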

Additional observations from a re-analysis of the deposited data

Results flagged for a closer look

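Each of 4 members passed the limits in opposite directions in 2 tables, and with 1 library per genotype none of these differences was tested. Mmp2 had a log2 fold change of -0.70 in fibroblast subcluster 4 and of 0.77 in subcluster 0. Timp1 had -1.33 in subcluster 5 and 0.41 in subcluster 3. Timp2 had -1.12 in subcluster 3 and 0.85 in macrophage/monocyte cluster 0. Timp3 had -0.81 in subcluster 5 and 0.67 in subcluster 4. Subclusters and clusters were normalised separately, so the values of Timp2 come from different scales. The values of Mmp2 and Timp3 in subcluster 4 rest on the subcluster with the coarsest shares.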

How the results depend on the processing

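No paired analysis was possible because there was 1 library for each genotype. With the table's median subtracted, 34 of the 34 values past the limits kept their sign. Some values from cluster tables then fell under the size limit. They were Mmp14 in clusters 0 (0.14) and 3 (0.013) and Timp2 in clusters 3 (0.17), 11 (-0.12) and 15 (-0.12). Timp3 in cluster 5 (-0.18) and Mmp8 in cluster 18 (-0.24) fell under it too. The rest of the 34 values stayed past it. With the log2 ratio of the shares of cells in place of the mean level, 21 kept their sign, 8 became 0 because both shares were 100%, and 5 turned: Timp2 in cluster 5 (0.01), Timp1 in subclusters 3 (-0.063) and 4 (0.036), Mmp2 in subcluster 4 (0.11) and Timp3 in subcluster 5 (0.39). Lower values then numbered 13 in place of 22. At a size limit of 0.5, cluster listings of members higher in the library labelled depleted numbered 2 in place of 7 and those lower 7 in place of 10. Among the members of fibroblasts, those lower numbered 1 in place of 2 in subclusters 0 and 3 and 2 in place of 3 in subcluster 4, and those higher numbered 0 in place of 1 in subcluster 3 and 1 in place of 2 in subcluster 4. The mean over the members was 0.039 in subcluster 0 and -0.15 in subcluster 4, where the medians were 0.14 and -0.47. In an alternative chosen after seeing the data, the median over the members of fibroblasts only was -0.099 in subcluster 3, where that of all members was -0.22. Leaving out clusters 6, 9 and 10, which list no member, and lowering the share limit for the members of fibroblasts, whose 5 members with values already met it, could not change a count. With all members at 10%, Mmp8 and Mmp9 entered in subcluster 0 and those lower numbered 4 in place of 2.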
